A study of Mus musculus with 18 samples.

Results

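Oxidative phosphorylation was followed at the level of mRNA in developing mouse thymocytes, through 96 genes of the respiratory chain and the ATP synthase, nearly all of them for subunits. The members were chosen by symbol (mitochondrial Nd, Co, Cytb and Atp genes and the nuclear Nduf, Sdh, Uqcr, Cox4 to Cox8 and Atp5 genes), out of 22566 genes in the authors' deposited tables, and were joined by Ensembl identifier to the raw counts. Of the 96, 13 are encoded in mitochondrial DNA and 83 in the nucleus. Complex I holds 42 members, complex II 4, complex III 9, complex IV 23 and complex V 18. Cox7a2l, a supercomplex factor, and Atp5s, coupling factor B, were taken in by symbol and counted with complexes IV and V. RNA was sequenced from sorted thymocytes of wild type thymi 28 days after transplantation. DN3 cells carry neither CD4 nor CD8 and are rearranging the beta chain of their T-cell receptor. DP cells, which follow them, carry both coreceptors. Each stage was taken under the 2 conditions that the labels call turnover (4 libraries per stage) and autonomy (5 libraries per stage). Thymus autonomy is the field's name for a graft that keeps making T cells from its own thymocytes when no new progenitors arrive, and turnover for a graft whose cells such progenitors replace. The labels name no host, strain, age or sex, and do not say that libraries of a group came from separate animals, so p-values measure only the spread between these samples, which may be technical. Turnover libraries come as A and B of a shared number (RP1140A and RP1140B, RP1141A and RP1141B).

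Oxidative phosphorylation makes most of the ATP of a respiring cell: complexes I and II pass electrons to coenzyme Q, complex III passes them to cytochrome c, complex IV hands them to oxygen, and complex V, the ATP synthase, uses the proton gradient built by complexes I, III and IV. Complexes I, III, IV and V mix subunits from both genomes, whereas every subunit of complex II, which is also an enzyme of the TCA cycle, is nuclear. NRF1, the ETS factor GABPA and YY1 are transcription factors known to act on nuclear genes of this system. In the thymus, early double-negative cells divide and grow before the much more numerous double-positive cells come to rest.

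Promoters are shown first for the 3 genes Atp5g1, Atp5g2 and Atp5g3, because they encode the same mature c-ring protein of the ATP synthase and yet had different mRNA changes, and for Sdhb and Uqcrfs1, 2 catalytic subunits whose mRNA changes are described further on. Each sequence is the 250 bases before the RefSeq start of the gene on the gene's own strand, 5′ to 3′, from the GRCm38.p6 RefSeq table. Capitals mark the letters of a searched motif.
Atp5g1: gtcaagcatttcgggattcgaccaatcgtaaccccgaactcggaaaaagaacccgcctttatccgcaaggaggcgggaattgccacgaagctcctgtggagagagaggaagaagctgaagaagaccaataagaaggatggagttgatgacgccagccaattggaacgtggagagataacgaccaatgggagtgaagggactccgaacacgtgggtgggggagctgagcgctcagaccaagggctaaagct
Atp5g2: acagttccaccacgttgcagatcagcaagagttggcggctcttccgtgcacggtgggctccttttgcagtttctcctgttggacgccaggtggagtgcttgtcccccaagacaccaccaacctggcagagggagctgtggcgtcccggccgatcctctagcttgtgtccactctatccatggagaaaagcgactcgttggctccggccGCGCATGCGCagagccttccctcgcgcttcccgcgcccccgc
Atp5g3: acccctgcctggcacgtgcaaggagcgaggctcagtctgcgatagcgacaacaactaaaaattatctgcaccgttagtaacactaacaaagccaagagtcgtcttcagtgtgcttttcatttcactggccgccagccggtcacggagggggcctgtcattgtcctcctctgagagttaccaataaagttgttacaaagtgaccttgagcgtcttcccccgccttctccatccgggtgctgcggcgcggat
Sdhb: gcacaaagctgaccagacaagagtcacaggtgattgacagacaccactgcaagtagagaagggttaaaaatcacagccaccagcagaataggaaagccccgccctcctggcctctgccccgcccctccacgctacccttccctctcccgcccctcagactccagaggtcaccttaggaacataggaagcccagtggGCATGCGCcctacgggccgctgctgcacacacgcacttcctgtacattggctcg
Uqcrfs1: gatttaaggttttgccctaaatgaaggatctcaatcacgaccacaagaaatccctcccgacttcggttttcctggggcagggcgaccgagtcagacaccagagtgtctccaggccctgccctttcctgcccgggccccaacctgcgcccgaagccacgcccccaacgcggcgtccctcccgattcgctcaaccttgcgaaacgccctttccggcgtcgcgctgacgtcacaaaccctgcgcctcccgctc
The windows lie at chr11:96075632-96075881 (minus strand) for Atp5g1, chr15:102671048-102671297 (minus) for Atp5g2, chr2:73911327-73911576 (minus) for Atp5g3, chr4:140961021-140961270 (plus) for Sdhb and chr13:30545317-30545566 (minus) for Uqcrfs1. The search read 300 bases around each start (250 before and 50 after) on both strands for GCGCATGC (NRF1), CCGGAAGT (the ETS motif of GABPA) and AAGATGGC (YY1), counting overlapping matches. A promoter was found for 68 of the 83 nuclear members, 66 by symbol and 2 by an older symbol. Among those without one in the table were Cox4i1, Sdhc, Uqcrc2 and Uqcrq. NRF1 letters were present for 10 of the 68 (14.7%), against 3.05% of all 27025 genes in the table. YY1 letters were present for 10 (14.7%, against 3.19%) and ETS letters for 5 (7.35%, against 4.31%). In Atp5g2 the NRF1 letters matched on both strands, 42 and 40 bases before the start and overlapping each other, and in Sdhb once, 54 bases before it. Atp5g1, Atp5g3 and Uqcrfs1 held none of the 3 motifs in this window. Any of the 3 was found in 10 of 27 members that were lower in DP than in DN3 under turnover and in 13 of 38 that were not called there, 37.0% and 34.2%.

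Total counts per library ran from 7426834 to 21808512 in DN3 and from 5032273 to 24191044 in DP. The stage labels matched their markers: Cd8a was at 2053 to 2328 CPM in the DP libraries and at 2.53 to 385 CPM in the DN3 libraries, and Il2ra at 257 to 633 CPM in DN3 and 1.26 to 41.2 CPM in DP. CPM is a gene's count scaled to a common library size with TMM. The highest DP marker sum among DN3 libraries, 3066 CPM over 7 markers, was in turnover library RP1141B, in a group with a median of 1738 CPM and a lowest library of 1299 CPM. Summed markers of other cells differed between conditions in places. In DN3, 5 NK markers summed to 113 to 162 CPM in turnover and 6.10 to 65.3 CPM in autonomy, with Nkg7 the only marker averaging above 1 CPM in turnover and Ncr1 at 0 there. DN3 turnover was also higher for the sums of 5 B-cell markers (52.3 to 91.5 CPM against 13.5 to 42.2) and 5 epithelial markers (90.1 to 113 CPM against 28.8 to 83.4), in each case with 1 marker averaging above 1 CPM. In DP, 6 macrophage markers summed to 2.48 to 22.8 CPM in turnover and 16.2 to 125 CPM in autonomy, where C1qb and C1qc averaged 15.7 and 12.5 CPM and Adgre1 was at 0. In DN3 the macrophage sum went the other way (17.3 to 35.7 CPM in turnover and 1.86 to 12.1 CPM in autonomy, mostly Lyz2), and the sums of 5 dendritic markers (10.5 to 29.5 against 2.53 to 10.3 CPM) and 5 stromal markers (83.3 to 103 against 42.5 to 65.6 CPM, mostly Pecam1) were also higher in DN3 turnover. The part of these cells in the results below was not tested.

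The mean share of all counts was larger in DN3 than in DP thymocytes in both conditions and for both genomes. The 13 mitochondrially encoded members took 4.53% ± 0.81 of all counts in DN3 turnover (SD, n = 4), 4.0% ± 0.64 in DN3 autonomy (n = 5), 2.88% ± 0.18 in DP turnover (n = 4) and 3.38% ± 0.28 in DP autonomy (n = 5). The 83 nuclear members took 2.06% ± 0.29, 2.37% ± 0.18, 1.52% ± 0.17 and 1.78% ± 0.22 in the same order. For the mitochondrial members, every DN3 library (3.45% to 5.55%) lay above every DP turnover library (2.69% to 3.09%), while DP autonomy (3.00% to 3.78%) overlapped DN3. For the nuclear members, DN3 autonomy (2.15% to 2.62%) lay above DP turnover (1.37% to 1.73%) and its lowest library was just above the highest of DP autonomy (1.56% to 2.14%). DN3 turnover (1.70% to 2.37%) overlapped both DP groups. A lower share in a sorted population does not tell fewer expressing cells from less RNA per cell.

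**Figure D1:**
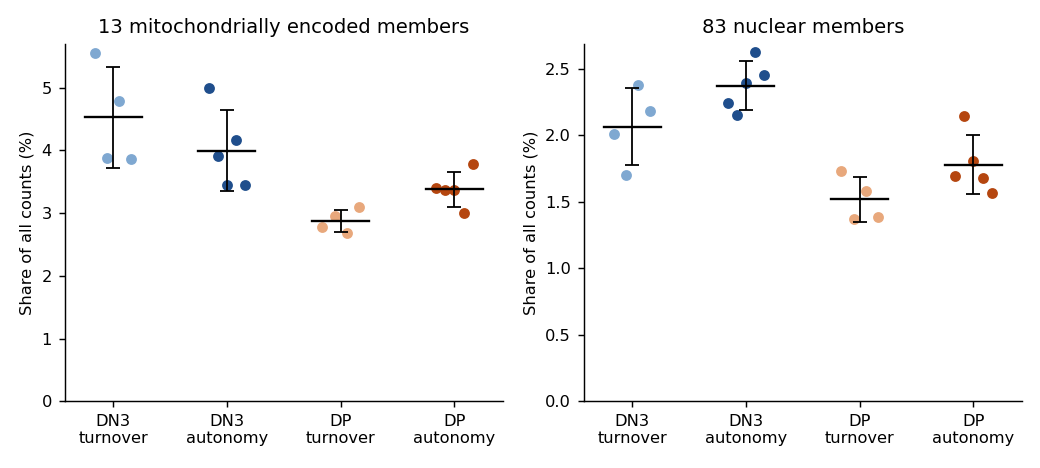
Share of all counts (%) taken by the 13 mitochondrially encoded members (left) and the 83 nuclear members (right) in each of the 18 libraries; points are libraries, the bar is the group mean and the whiskers are 1 SD. The mitochondrial share is highest in DN3 turnover (mean 4.53%) and lowest in DP turnover (2.88%), and the nuclear share is highest in DN3 autonomy (2.37%).

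Levels of different genes can be compared only per length, here as CPM per kilobase of the union of a gene's annotated exons. On that scale mt-Nd1 (12370 ± 2491), mt-Cytb (11950 ± 2690) and mt-Co1 (7673 ± 2461) led in DN3 turnover, and the highest nuclear members there were Atp5c1 (661 ± 60.1) and Atp5b (614 ± 80.0), the gamma and beta subunits of the F1 motor, which did not differ beyond their spread. In DP turnover Cox4i1 (494 ± 103), the main subunit 4 of complex IV, stood first and Atp5c1 (432 ± 41.2) second, again within their spread, and Atp5b was sixth (293 ± 22.3). The union length of Atp5b is 4237 bases and its longest transcript 1916, against 1908 and 1735 for Atp5c1. Per length of the longest transcript Atp5b would stand higher, so its place in these orders depends on the length used. Isoforms of complex IV that other tissues use were near the floor: in DN3 turnover Cox6a2 and Cox7a1, known from heart and skeletal muscle, were at 1.27 ± 1.16 and 3.82 ± 1.19 per kilobase, against 338 ± 105 and 228 ± 70.7 for their general counterparts Cox6a1 and Cox7a2. Ndufa4l2 had no read in any library, Cox8b had 2 reads in all 18 libraries, Cox8c 8 and Cox7b2 14. Cox4i2 reached 33 reads in its highest library. Cox6b2, known from testis, was the exception among these isoforms at 16.4 ± 5.38 per kilobase, against 402 ± 98.9 for Cox6b1.

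The first comparison asked how the 2 stages differ within a condition. In turnover libraries, 38 of the 91 members tested were lower in DP than in DN3 and none was higher (edgeR, adjusted p under 0.05), where 19.1% of all 11521 genes tested were lower and 15.8% higher. The median log2 change of the members, DP over DN3, was -0.59, against -0.04 over all genes tested. In autonomy libraries, 44 of 91 were lower (25.2% of all genes) and 1 was higher (23.7%), with a median of -0.56 against -0.00. The groups did not overlap, DP below DN3, for 21 members in turnover (19.6% of all genes) and 29 in autonomy (20.8%). These pairs use different libraries but 1 estimate of the spread. Both pairs called 31 members lower, with 7 more in turnover alone and 13 more in autonomy alone. Of the 38, 26 stayed called with each library left out in turn, as did 34 of the 44. With the A and B libraries of a number summed, 24 were called in turnover, and without DN3 library RP1141B, which had the most DP marker RNA, 32. Genes with a longest transcript under 1500 bases had median changes of -0.35 in turnover and -0.21 in autonomy, against 0.00 and 0.03 for longer genes. Of the 91 members, 62 are that short, with medians of -0.56 and -0.47, and the 29 longer members had medians of -0.62 and -0.77.

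**Figure D2:**
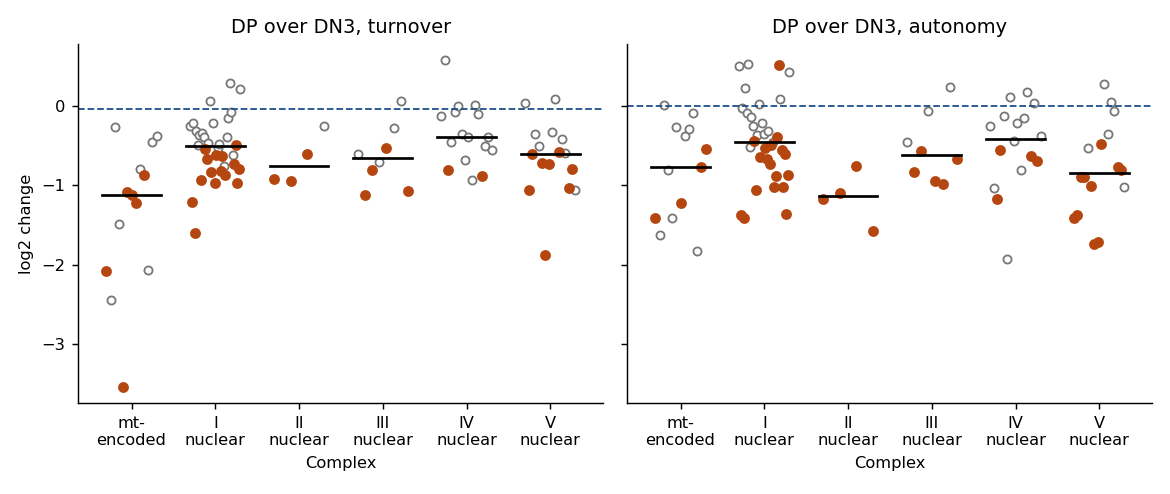
log2 change of each member tested, DP over DN3, in turnover (left) and autonomy (right), by complex and genome of origin; filled points passed the edgeR test (adjusted p under 0.05), open points did not, bars are group medians and the dashed line is the median of all genes tested. Every filled point lies below 0, apart from Ndufs4 (log2 0.51) in the autonomy panel.

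In complex I, 15 of 34 nuclear members tested were lower in DP in turnover and 17 in autonomy. All 6 nuclear core subunits tested, the part that carries electrons, were lower in autonomy, and 4 of the 6 in turnover. Ndufv1, which binds NADH and the flavin, was at 249, 216, 267 and 224 CPM in DN3 turnover and at 123, 124, 119 and 119 CPM in DP turnover. In autonomy it was at 294, 295, 237, 333 and 350 CPM in DN3 and 131, 87.9, 143, 105 and 118 CPM in DP. No library of one stage reached the other, and the log2 changes were -0.98 (SE 0.16, adjusted p = 8.63e-05) and -1.37 (SE 0.14, adjusted p = 1.67e-07). Ndufa12, an accessory subunit on the matrix arm, fell from 133, 92.5, 211 and 222 CPM to 56.4, 42.2, 60.4 and 58.6 CPM in turnover (log2 -1.60, SE 0.25, adjusted p = 6.94e-05). The change was -1.41 (SE 0.23) in autonomy, and 17.7% of its 50-base stretches also occur in a processed pseudogene. Ndufa10, another accessory subunit, changed by -1.21 (SE 0.17) and -1.38 (SE 0.16). Ndufs4, an accessory subunit whose loss causes a well known mouse model of complex I deficiency, was the 1 member higher in DP. It was at 255, 271, 305, 268 and 230 CPM in DN3 autonomy and 386, 486, 413, 308 and 298 CPM in DP autonomy, overlapping groups (log2 0.51, SE 0.16, adjusted p = 0.0113). In turnover its change was 0.29 (SE 0.18, adjusted p = 0.218). Ndufa4, long assigned to complex I and also found with complex IV, is counted here with complex IV and not among the 34. It had changes of -0.56 (SE 0.23, adjusted p = 0.0672) and -0.39 (SE 0.21, adjusted p = 0.129).

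All 4 complex II genes were lower in DP in autonomy and 3 of 4 in turnover. Sdha, the flavoprotein that oxidises succinate, was at 660, 566, 601 and 602 CPM in DN3 turnover against 353, 299, 319 and 314 CPM in DP turnover, with no overlap. Its log2 changes were -0.92 (SE 0.18, adjusted p = 0.000432) in turnover and -1.17 (SE 0.16, adjusted p = 4.2e-06) in autonomy. Sdhb, the iron-sulfur subunit whose promoter is printed above, changed by -0.95 (SE 0.21) and -1.10 (SE 0.19). Sdhd, a membrane anchor, was at 68.5, 64.9, 105 and 112 CPM in DN3 turnover and 71.6, 73.8, 75.1 and 73.8 CPM in DP turnover, which overlap. In autonomy it was at 104, 252, 83.3, 107 and 251 CPM in DN3 and 56.5, 57.5, 32.4, 48.8 and 71.7 CPM in DP, a change of -1.58 (SE 0.30, adjusted p = 0.000172). Libraries RP1134 and RP1138 held the high DN3 values. Sdhc, the other anchor, changed by -0.61 (SE 0.23, adjusted p = 0.0416) in turnover, and that call was lost without any of 10 libraries in turn, among them DN3 turnover RP1140A, RP1141A and RP1141B.

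In complex III, 4 of 8 nuclear members were lower in DP in turnover and 5 in autonomy. Uqcrfs1, the Rieske iron-sulfur protein, had a change of -0.28 in turnover (SE 0.13, adjusted p = 0.113) and fell by 0.99 on the log2 scale in autonomy (SE 0.12, adjusted p = 9.84e-07). Uqcrc2, a core protein, changed by -0.53 (SE 0.14) and -0.95 (SE 0.13). Uqcr11 and Uqcrq, small subunits, were lower in both pairs, with changes of -1.13 (SE 0.29) and -1.08 (SE 0.26) in turnover, although their libraries overlapped. The Uqcrq call in autonomy (-0.68, SE 0.23) was lost without DN3 autonomy RP1137 or RP1138 or DP autonomy RP1138. Uqcrh, a hinge protein of the same complex, had changes of 0.06 (SE 0.21) and 0.23 (SE 0.19) and was not called.

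In complex IV, 2 of 16 nuclear members were lower in DP in turnover and 4 of 16 in autonomy, no more than the 19.1% and 25.2% of all genes. The 16 include Cox4i2, Cox6a2 and Cox7a1, which were near the floor and not called, so the share called is higher among the rest. Cox5a was at 363, 362, 515 and 438 CPM in DN3 turnover and 241, 239, 248 and 226 CPM in DP turnover (log2 -0.81, SE 0.20, adjusted p = 0.00369), and changed by -1.18 (SE 0.18) in autonomy. Cox7b changed by -0.88 (SE 0.22) and -0.63 (SE 0.20), and Cox5b and Cox8a, both structural subunits, were called in autonomy alone (-0.56, SE 0.18, and -0.70, SE 0.18), the Cox5b call not without DN3 autonomy RP1137. Cox7a2l, a factor of respiratory supercomplexes, had changes of -0.11 (SE 0.17) and 0.17 (SE 0.15) without a call. Cox4i1, the most abundant of them per length in DP, had changes of -0.14 (SE 0.16, adjusted p = 0.558) and -0.26 (SE 0.15, adjusted p = 0.156).

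In complex V, 8 of 16 nuclear members were lower in DP in turnover and 10 in autonomy. Atp5b, the catalytic beta subunit, was at 2832, 2392, 2948 and 2244 CPM in DN3 turnover and 1125, 1335, 1301 and 1210 CPM in DP turnover. The stages did not overlap there or in autonomy, and the changes were -1.07 (SE 0.15, adjusted p = 2.7e-05) and -1.38 (SE 0.14, adjusted p = 1.1e-07). Atp5c1 changed by -0.61 (SE 0.12) and -0.89 (SE 0.11), Atp5f1 of the peripheral stalk by -0.72 (SE 0.14) and -1.01 (SE 0.12), and Atp5h, of the same stalk, by 0.08 (SE 0.19) and 0.27 (SE 0.17) without a call. Of the subunits that join synthase dimers, Atp5l changed by -1.03 (SE 0.22, adjusted p = 0.00119) and -0.78 (SE 0.20, adjusted p = 0.00263), while Atp5k had changes of -0.59 (SE 0.39) and -0.07 (SE 0.35) without a call.

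The 3 c-ring genes had unlike values. Atp5g1 was at 146, 104, 204 and 190 CPM in DN3 turnover and 53.4, 40.6, 43.9 and 37.7 CPM in DP turnover. In autonomy it was at 176, 156, 179, 248 and 247 CPM in DN3 and 59.1, 72.9, 54.1, 56.5 and 59.1 CPM in DP. Its changes, -1.88 (SE 0.21, adjusted p = 1.95e-06) and -1.74 (SE 0.19, adjusted p = 3.14e-07), were the largest among nuclear members called in each pair. Atp5g2 was at 92.4, 149, 113 and 62.2 CPM in DN3 turnover and 60.1, 70.0, 66.5 and 53.2 CPM in DP turnover, which overlap (log2 -0.74, SE 0.21, adjusted p = 0.0101), and the call was lost without DN3 turnover library RP1140B. In autonomy it was at 137, 131, 131, 127 and 129 CPM in DN3 and 31.3, 38.5, 49.9, 39.8 and 39.3 CPM in DP, far apart (log2 -1.72, SE 0.19, adjusted p = 4.49e-07). Atp5g3 held most of the c-ring mRNA per length in all 4 groups, 126 ± 14.0 CPM per kilobase in DN3 turnover and 100.4 ± 22.2 in DP turnover, against 32.8 ± 9.23 and 8.93 ± 1.38 for Atp5g1. Its change was -0.33 (SE 0.18, adjusted p = 0.18) in turnover and -0.48 (SE 0.17, adjusted p = 0.0201) in autonomy, and the latter call was lost without DN3 autonomy RP1133 or RP1137 or DP autonomy RP1138. Of Atp5g2's 50-base stretches 38.4% also occur in pseudogenes, so its level is uncertain.

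**Figure D3:**
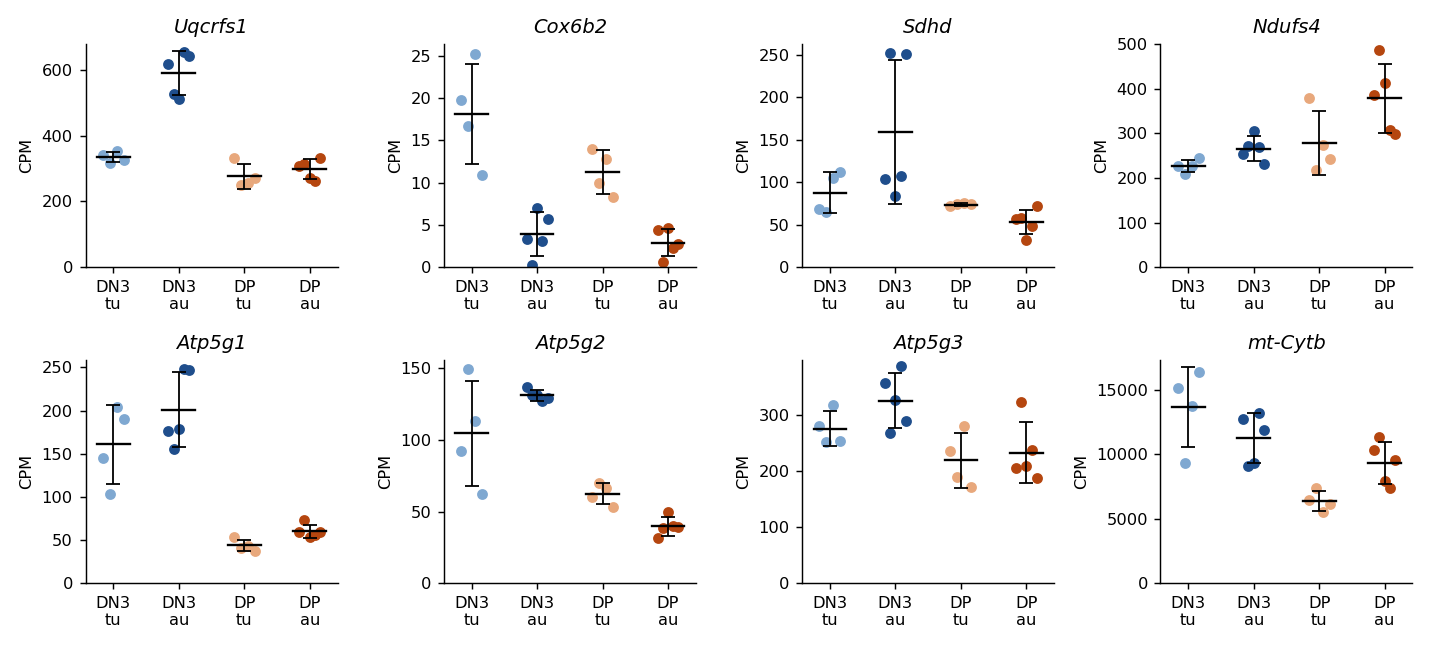
CPM in each library for 8 members; tu is turnover, au is autonomy, points are libraries, bars are means and whiskers are 1 SD. Uqcrfs1 is high in DN3 autonomy alone (513 to 656 CPM), Cox6b2 is higher in turnover in both stages, and Atp5g2 is lowest in DP autonomy, where Atp5g1 and Atp5g3 are not.

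Among the 13 mitochondrially encoded members, 6 were lower in DP in turnover and 4 in autonomy, and 2 of them, mt-Nd1 and mt-Atp6, in both. mt-Nd1 was at 13436, 11440, 13846 and 8629 CPM in DN3 turnover and 5123, 5580, 5748 and 5350 CPM in DP turnover (log2 -1.12, SE 0.17, adjusted p = 3.31e-05), and changed by -1.22 (SE 0.15, adjusted p = 1.13e-06) in autonomy. mt-Cytb, mt-Nd2 and mt-Nd4 were lower in DP in turnover (-1.09, SE 0.17; -1.23, SE 0.19; -0.87, SE 0.20) and had changes of -0.27, -0.38 and -0.09 in autonomy without a call. mt-Nd6, the 1 member read from the other strand of mitochondrial DNA, and mt-Nd5 were called in autonomy alone (-0.54, SE 0.16, and -0.77, SE 0.25), mt-Nd5 not without DN3 autonomy RP1133. Strand use in the counting is not known, so the mt-Nd6 counts may hold reads of the opposite strand. mt-Co1, the catalytic subunit of complex IV, was not called in either pair: it was at 16438, 9116, 13500 and 8366 CPM in DN3 turnover and 9636, 9614, 8425 and 11812 CPM in DP turnover (log2 -0.26, SE 0.20, adjusted p = 0.329), and 0.01 (SE 0.18, adjusted p = 0.967) in autonomy. The make-up of the counts of these members therefore differed between stages. mt-Co1 was 25.6% ± 3.53 of the mitochondrially encoded member counts in DN3 turnover and 37.2% ± 3.52 in DP turnover, and 25.7% ± 3.54 and 36.1% ± 2.79 in autonomy. mt-Nd1 was 26.1% ± 3.64 and 20.7% ± 1.75 in turnover, and 31.9% ± 4.06 and 18.9% ± 1.85 in autonomy. These RNAs are cut from long shared transcripts, so the members are not independent of each other.

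**Figure D4:**
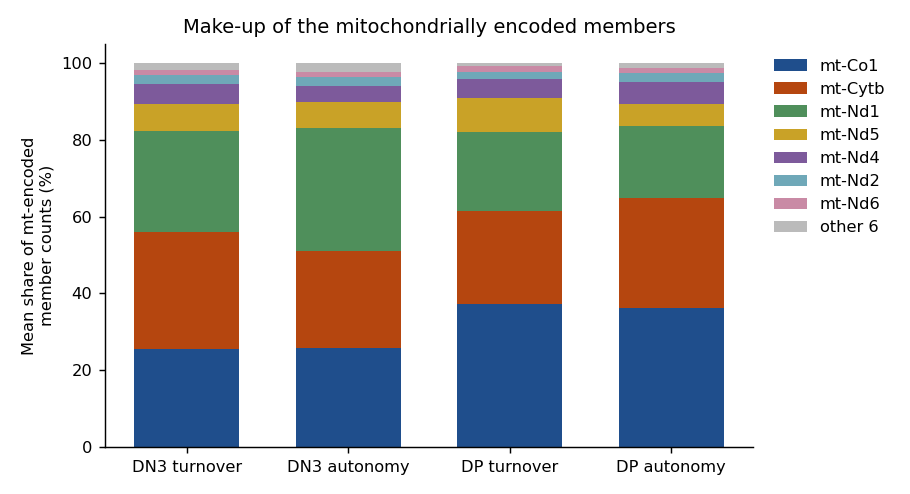
Mean share (%) of each mitochondrially encoded member in the counts of all 13, by group; the grey top segment pools the 6 members with the lowest counts. mt-Co1 takes 25.6% and 25.7% in DN3 and 37.2% and 36.1% in DP.

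Several mitochondrial members have near-identical nuclear copies, which can take their reads. Of the 50-base stretches of mt-Co2, mt-Co3, mt-Atp6, mt-Nd3 and mt-Nd4l, at least 97.99% also occur in unprocessed pseudogenes in the annotation, of mt-Nd4 62.2% and of mt-Co1 51.1%, against 0% for mt-Nd1, mt-Cytb, mt-Nd6 and mt-Atp8. mt-Co3 averaged only 145 ± 114 CPM in DN3 turnover, against 11855 ± 3803 CPM for mt-Co1, and its value cannot be read as its level. The same holds for the log2 changes of mt-Co3 (-3.54, SE 0.72, in turnover) and mt-Atp6 (-2.08, SE 0.35, and -1.41, SE 0.31), and for mt-Co2, mt-Nd3 and mt-Nd4l, which were called in no comparison. mt-Atp8, without such copies, was not called either. The make-up, the order per length and the summed share of the mitochondrial members given above are likewise of assigned counts. Reads lost to the copies, also for mt-Co1 and mt-Nd4, may shift them. Among nuclear members, Ndufs3, a core subunit of complex I, had at most 10 reads in a library and was not tested. Atp5a1, the alpha subunit of the F1 motor, and Uqcrc1, a core protein of complex III, had at most 242 and 169 reads. They averaged 6.57 ± 1.22 and 5.23 ± 2.12 CPM in DN3 turnover, where Atp5b, in the same complex as Atp5a1, averaged 2604 ± 339 CPM. Atp5a1 was called lower in DP in autonomy (log2 -1.42, SE 0.46, adjusted p = 0.0154), from counts this low.

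The second comparison asked what differs in DN3 cells between autonomy and turnover. Of 90 members tested, 3 were higher and 1 lower in autonomy, where 6.53% of all 10766 genes tested were higher and 8.35% lower. The members' median change was 0.28, against -0.05 over all genes, and 76 of the 90 lay above 0. Groups did not overlap, autonomy higher, for 2 members (8.26% of all genes), Uqcrfs1 and Atp5f1, and, autonomy lower, for 1 (10.1%), Cox6b2. The 13 mitochondrially encoded members had a median change of 0.01 and none was called, with none at an unadjusted p under 0.05. The number called was 1 with A and B summed, 8 with DESeq2 and 1 (without turnover RP1140A) to 7 (without autonomy RP1135) with a library left out. The authors' deposited table, which is also from DESeq2, lists 6 members higher and 2 lower at an adjusted p under 0.05. Genes with a longest transcript under 1500 bases had a median change of 0.08, against -0.07 for longer ones, and the 61 short and 29 longer members 0.25 and 0.31.

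Uqcrfs1 (ENSMUSG00000038462, chromosome 13 of GRCm38 from 30540308 to 30545362) was at 342, 319, 354 and 325 CPM in DN3 turnover and 618, 528, 513, 656 and 644 CPM in DN3 autonomy. Every autonomy library was above every turnover library, a 1.75-fold difference (log2 0.81, SE 0.13, adjusted p = 0.00228), and this call alone among the 4 stayed with each library left out and with A and B summed. Ndufa10 was at 360, 283, 386 and 366 CPM in turnover and 509, 519, 382, 604 and 559 CPM in autonomy, with library RP1135 below the highest turnover library (log2 0.55, SE 0.16, adjusted p = 0.0363). Cox5a was at 363, 362, 515 and 438 CPM in turnover and 574, 490, 581, 751 and 710 CPM in autonomy, with RP1134 inside the turnover range (log2 0.56, SE 0.17, adjusted p = 0.0411). The Ndufa10 and Cox5a calls were lost without any of RP1140A, RP1140B and RP1141B of turnover or RP1133, RP1137 and RP1138 of autonomy, and that of Ndufa10 also without autonomy RP1134, with adjusted p up to 0.0914 and 0.13. Cox6b2 (ENSMUSG00000051811, chromosome 7 from 4751792 to 4753094) was at 19.8, 16.7, 25.2 and 10.9 CPM in turnover and 3.36, 0.297, 7.05, 3.05 and 5.74 CPM in autonomy (log2 -2.20, SE 0.55, adjusted p = 0.0184). The groups did not overlap, and the adjusted p was 0.0542 without turnover RP1140A and 0.0522 without turnover RP1141A.

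By complex, the nuclear medians in DN3 were 0.29 for complex I, 0.46 for complex II, 0.33 for complex III, 0.23 for complex IV and 0.33 for complex V, all above 0. Without a call by edgeR, Atp5b had a value of 0.44 (SE 0.18, adjusted p = 0.11), Atp5f1 0.41 (SE 0.14, adjusted p = 0.0701), Ndufs1, a core subunit of complex I, 0.43 (SE 0.15, adjusted p = 0.0747) and Sdhd 0.86 (SE 0.35, adjusted p = 0.11). The authors' deposited DESeq2 table has Atp5f1 and Ndufs1 among its higher members, at adjusted p of 0.0200 and 0.0430. The libraries differed within groups: relative to the DN3 mean of the 78 nuclear members, turnover library RP1140B had a median deviation of -0.62 with 2 of 78 above 0, turnover RP1140A one of -0.26, and autonomy RP1137 and RP1138 ones of 0.37 and 0.26. Turnover RP1141A (0.18, 55 above 0) and RP1141B (0.04, 43 above 0) lay above the mean as well, and autonomy RP1133 (-0.12, 27 above 0) lay below it, so the libraries of the conditions overlapped. Over all genes tested these medians were between -0.06 and 0.04 in the 9 DN3 libraries. Over genes with a longest transcript under 1500 bases they had the members' sign in every DN3 library, from -0.20 (turnover RP1140B) to 0.12 (turnover RP1141B). Most members are that short, and the part of transcript length in these deviations was not tested.

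**Figure D5:**
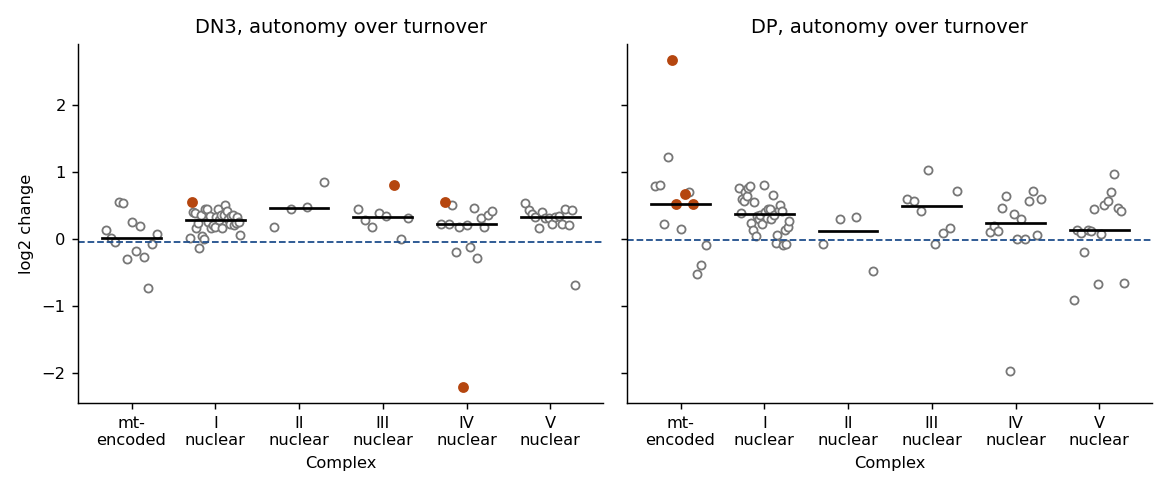
log2 change of each member tested, autonomy over turnover, in DN3 (left) and DP (right), by complex and genome of origin; filled points passed the edgeR test (adjusted p under 0.05), open points did not, bars are group medians and the dashed line is the median of all genes tested. The DN3 calls are nuclear and the 4 DP calls are mitochondrially encoded.

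The third comparison put the same question to DP cells. Of 89 members tested, 4 were higher in autonomy and none lower, where 0.861% of all 10339 genes tested were higher and 0.861% lower. All 4 were mitochondrially encoded, mt-Nd2, mt-Nd4, mt-Cytb and mt-Co3. Of the 76 nuclear members tested by edgeR none was called, 28 had an unadjusted p under 0.05 (1768 of all 10339 genes did), and DESeq2 in the authors' deposited table lists 13 members higher and 2 lower over both genomes. The 2 lower there are Cox6b2 (DESeq2 adjusted p = 0.0156) and Atp5g2 (DESeq2 adjusted p = 0.0155). The median change over the members was 0.36, against -0.02 over all genes, and 74 of 89 lay above 0. Groups did not overlap, autonomy higher, for 10 members (4.22% of all genes) and, autonomy lower, for 2 (3.97%), Cox6b2 and Atp5g2. Short genes had a median of 0.20, against -0.05 for longer ones, and the 60 short and 29 longer members 0.42 and 0.23.

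mt-Cytb, the cytochrome b of complex III, was at 6505, 7380, 5566 and 6174 CPM in DP turnover and 10355, 11336, 7920, 7436 and 9578 CPM in DP autonomy. The lowest autonomy library, RP1137, was just above the highest turnover library (log2 0.53, SE 0.12, adjusted p = 0.0493). mt-Nd2 was at 539, 471, 523 and 447 CPM in turnover and 866, 954, 672, 677 and 817 CPM in autonomy (log2 0.68, SE 0.13, adjusted p = 0.0228). mt-Nd4 was at 1366, 1215, 1100 and 1395 CPM in turnover and 1930, 1928, 1758, 1628 and 1941 CPM in autonomy (log2 0.52, SE 0.10, adjusted p = 0.0254). Of its 50-base stretches 62.2% also occur in a pseudogene, so its reads are uncertain too, against 8.19% for mt-Nd2. mt-Co3, whose reads are uncertain as described, was at 17.9, 16.2, 4.42 and 11.5 CPM in turnover and 26.7, 57.8, 214, 38.2 and 61.2 CPM in autonomy (log2 2.66, SE 0.61, adjusted p = 0.0472). Groups did not overlap for any of the 4. None of these calls stayed with each library left out in turn: without turnover RP1140B or RP1141A none of the 4 remained, and in both cases no member at all was called. Of the others, mt-Nd1 had a change of 0.16 (SE 0.09, adjusted p = 0.422), mt-Co1 one of 0.23 (SE 0.10, adjusted p = 0.236) and mt-Nd5 one of -0.38 (SE 0.14, adjusted p = 0.18).

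Among nuclear members in DP, all 28 accessory subunits of complex I had changes above 0, with a median of 0.43 and none called, while the 6 tested nuclear core subunits had a median of -0.00, and 5032 of all 10339 genes tested lay above 0. The difference between accessory and core subunits was not tested. Over the 78 nuclear members, autonomy library RP1135 deviated from the DP mean by a median of 0.57 and autonomy RP1138 by -0.13, and turnover libraries by 0.09 (RP1140A), -0.36 (RP1140B), -0.11 (RP1141A) and -0.39 (RP1141B). Short genes deviated in the members' direction in every DP library, by 0.21 in autonomy RP1135, -0.16 in turnover RP1140B and -0.18 in turnover RP1141B. The part of transcript length was not tested. Ndufa3, an accessory subunit, had the smallest p (log2 0.77, SE 0.21, adjusted p = 0.0827). Cox6b2 was at 14.0, 9.98, 12.8 and 8.27 CPM in turnover and 4.36, 0.638, 4.58, 2.26 and 2.72 CPM in autonomy, with no overlap (log2 -1.97, SE 0.65, adjusted p = 0.141). Atp5g2 was lower in every autonomy library than in every turnover library (log2 -0.66, SE 0.21, adjusted p = 0.13), while Atp5g1 was higher in every one (0.45, SE 0.21, adjusted p = 0.292) and Atp5g3 had a change of 0.08 (SE 0.19, adjusted p = 0.885). Uqcrfs1 had one of 0.09 (SE 0.13, adjusted p = 0.785).

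The difference between the autonomy effects in DP and DN3 was tested itself. Of 91 members, mt-Cytb passed with a higher effect in DP (2.88% of all genes tested did so) and Uqcrfs1 and Atp5g2 with a lower one (2.61%). Both numbers are no more than the share of all genes. For Uqcrfs1 the effect in DP was smaller than in DN3 by a log2 difference of -0.71 (SE 0.18, adjusted p = 0.0209), and for Atp5g2 by -0.98 (SE 0.28, adjusted p = 0.0472). For mt-Cytb the difference was 0.82 (SE 0.23, adjusted p = 0.0432). None of the 3 stayed called with A and B summed, without the filter on low counts or with a replicate block, where the adjusted p of Uqcrfs1 was 0.157, 0.0511 and 0.102. With single libraries left out, the Uqcrfs1 call was lost without DP turnover RP1140A (-0.61, adjusted p = 0.0545), the Atp5g2 call without 16 of the 18 libraries in turn and that of mt-Cytb without 13. Cox6b2, called by edgeR in DN3 and not in DP, had a difference of 0.24 (SE 0.87, adjusted p = 0.92) and was not called there.

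Other genes of the mitochondrion, with cycling genes beside them, were grouped in 9 lists and are described by counts alone. Each count stands against the share of all genes called: 19.1% and 25.2% lower and 15.8% and 23.7% higher in DP in turnover and autonomy, 6.53% higher and 8.35% lower in DN3 autonomy, and 0.861% each way in DP autonomy. Of 24 genes of protein import, cristae and nucleotide exchange, 22 were lower in DP in turnover and 23 in autonomy, and 13 were higher in DN3 autonomy than in DN3 turnover. Hspd1, the matrix chaperonin, was at 892 ± 194 CPM in DN3 turnover, 1709 ± 294 in DN3 autonomy, 132 ± 15.2 in DP turnover and 234 ± 56.4 in DP autonomy. In DP, Slc25a5, an ADP/ATP carrier, and Timm23, a pore of the inner membrane, were higher in autonomy (log2 0.64, SE 0.10, and 0.78, SE 0.17). Of 76 genes of the mitochondrial ribosome tested, 55 and 59 were lower in DP and 12 higher in DN3 autonomy, where Mrpl18 changed by 0.81 (SE 0.15). In DP none was called between conditions, with 20 of 76 at an unadjusted p under 0.05, where 1768 of all 10339 genes were.

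Of 17 genes for electron carriers and coenzyme Q synthesis, 10 and 11 were lower in DP in turnover and autonomy, and 7 were higher and 1 lower in DN3 autonomy. Coq7, a hydroxylase of that pathway, was at 51.8 ± 8.49 CPM in DN3 turnover and 105 ± 13.9 CPM in DN3 autonomy (log2 1.02, SE 0.17, adjusted p = 0.00278), while Coq8a fell from 15.8 to 4.11 CPM on average (-1.95, SE 0.42). Of 17 TCA cycle genes, 9 and 16 were lower in DP, Suclg2 by -2.86 (SE 0.52) and -2.92 (SE 0.47), and 4 were higher and 1, Idh2, lower in DN3 autonomy (-0.71, SE 0.14). In each of these lists the 1 lower gene was near the share of all genes. Of 45 assembly factors tested, 15 were lower in DP in turnover, and 20 lower and 4 higher in autonomy, the 4 being below the share of all genes. Ndufaf6, which acts in the assembly of complex I, was at 57.3 ± 2.25 CPM in DN3 turnover and 11.01 ± 4.22 in DP turnover. In DN3, 2 assembly factors were higher in autonomy, no more than the share of all genes: Cox10 (0.95, SE 0.21) and Nubpl (0.77, SE 0.24).

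Of 27 genes for the expression and copying of mitochondrial DNA, 11 and 16 were lower in DP and 1, Polg, was higher in both pairs, while 3 were higher and 1 lower in DN3 autonomy (Tsfm, a translation factor, 0.73, SE 0.16, and Twnk, the helicase, -0.72, SE 0.20), numbers near the share of all genes. Polg, the mitochondrial DNA polymerase, was at 35.8 ± 6.12 CPM in DN3 turnover and 128 ± 32.7 in DP turnover (log2 1.84, SE 0.24, adjusted p = 9.58e-06). Among 12 nuclear regulators tested, Myc, a growth regulator, fell from 684 ± 84.1 to 41.9 ± 8.59 CPM in turnover as did Pprc1, a coactivator of the PGC-1 family (-3.13, SE 0.60), and Foxo1 was higher in DP (1.79, SE 0.35). In DN3 autonomy, Hif1a was the only regulator called (0.84, SE 0.19, adjusted p = 0.0115), a number near the share of all genes. Of 10 genes of uncoupling and oxidant defence tested, 5 were lower and 2 higher in DP in each pair, the latter near the share of all genes. Mcub, which dampens the calcium uniporter, was at 316 ± 43.3 CPM in DN3 turnover and 6.49 ± 3.77 in DP turnover, and Mcu, the uniporter's pore, was higher in DP (1.32, SE 0.31). Between conditions in DP, Gpx1, a glutathione peroxidase, was the 1 of these 10 called (higher in autonomy, 0.63, SE 0.14). Cycling genes moved with the comparisons too: of 16, 15 were higher in DN3 autonomy, 5 were lower in DP autonomy, 16 were lower in DP than in DN3 in autonomy, and 4 were higher and 6 lower in turnover. Their part in the changes of the members was not tested.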

How the data were processed

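RNA from sorted DN3 and DP thymocytes was captured on oligo-dT beads and made into Pico Nextera libraries, per the labels' protocols. The authors deposited raw read counts per Ensembl gene, made with HISAT2 and featureCounts on GRCm38 (mm10) per the submitters' processing notes, and tables made with DESeq2. Per the file headers, those deposited tables hold log2 fold changes, raw and adjusted p-values, a signal column (mean normalized counts, not used) and a score column (the Wald statistic, not used). Versions, settings and strand use were not found in any label or header, so overlapping genes have uncertain values. From the counts, edgeR 4.0.16 in R 4.3.3 (filterByExpr, TMM, glmQLFit, glmQLFTest, Benjamini-Hochberg adjustment over all genes, threshold 0.05) compared conditions within each stage's 9 libraries, and stages and the difference of effects in 1 fit of all 18. SE is the log2 change divided by the square root of F. Alternatives were DESeq2 1.42.0, limma 3.58.1 (voom), other scalings, no filter, a replicate block, A and B summed, and each library left out. Lengths, overlaps and 50-base matches came from GENCODE M21. The test was also run on counts simulated from the DN3 libraries, with the same spread for every gene and independent libraries. Those settings differ from the data, so that run does not bear on the calls. Members, lists and tests were chosen with earlier results of these data known. The text names all mitochondrially encoded members, up to 3 nuclear members per complex, direction and comparison, the isoform sets and up to 2 genes per list and direction; Atp5h, Atp5c1, Atp5g3, Cox5b, Uqcrh, Ndufs1 and Ndufs3 were named after their values were seen.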

Additional observations from a re-analysis of the deposited data

Results flagged for a closer look

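The autonomy effect differed between the stages by the test of the difference for 3 of 91 members: Uqcrfs1 (-0.71 on the log2 scale, DP minus DN3), Atp5g2 (-0.98) and mt-Cytb (0.82). That is no more than the 5.49% of all genes tested that were called. None of these calls held with A and B summed, without the filter or with the replicate block, and each was lost without at least 1 library.

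A single library stood far from the others of its group in 4 of 124 groups of values examined, where chance flags about 1 group in 20. In DP autonomy library RP1138 the mitochondrially encoded members of complex I took 1.385% of counts (95% Wilson interval 1.376% to 1.394%, counting error only), against 1.081% to 1.113% in the other 4, and mt-Nd1 was at 7617 CPM. In DP autonomy library RP1136 mt-Co3 was at 214.4 CPM, and in RP1135 Atp5g1 was at 72.9 CPM.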

How the results depend on the processing

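No called value changed direction under any alternative run. Over all named members and comparisons, 5191 alternative values were computed, of which 114 lost the call and 56 gained it. The sign differed from the reported one in 128 of them, over 40 values that were not called (adjusted p of 0.573 or more). Members called in DN3 autonomy against turnover numbered 4, and 1 with A and B summed, 8 with DESeq2 and 1 to 7 with a library left out (1 without turnover RP1140A, 2 without autonomy RP1133, RP1137 or RP1138, 7 without autonomy RP1135). In DP they numbered 4, and 0 with A and B summed, 15 with DESeq2, 1 in the fit of all 18 libraries and 0 to 5 with a library left out (0 without turnover RP1140B or RP1141A, 1 without turnover RP1141B or autonomy RP1133, 2 without turnover RP1140A or autonomy RP1135). Members called in DP against DN3 in turnover numbered 38, and 24 with A and B summed and 29 to 48 with a library left out. In autonomy they numbered 45, and 36 to 52. The difference of the effects gave 3 members, and 0 without the filter, 0 with A and B summed, 5 with DESeq2, 0 with the replicate block and 0 (without DP turnover RP1140A) to 5 (without DN3 turnover RP1140B) with a library left out. Same-numbered DN3 and DP libraries correlated by 0.00 to 0.05 in their deviations from the group means, and 3 of 8 correlated best with their own number, so the numbers were not taken to pair the samples; the replicate block gave 34 members in turnover and 41 in autonomy for DP against DN3. No paired analysis was possible for autonomy against turnover within a stage because the conditions share no numbers. Taken as a share of counts outside the mitochondrial genome, each mean share by genome moved by less than 1 SD. Leaving out 1 library cannot move a mean of 4 or 5 values by 1 SD, so those runs could not test the shares. Members with few reads (Ndufs3, Atp5a1, Uqcrc1 and the tissue isoforms of complex IV) allow no firm statement. In the same libraries Atp5b and Uqcrc2, of the same complexes as Atp5a1 and Uqcrc1, had at least 6746 and 1508 reads. Why Ndufs3, Atp5a1 and Uqcrc1 had so few was not tested.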
